A study of Mus musculus with 9 samples.

Results

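Dual-specificity phosphatases (DUSPs) are enzymes that remove phosphate from both tyrosine and threonine residues. The 10 mRNAs described here, Dusp1, Dusp2, Dusp3, Dusp4, Dusp5, Dusp6, Dusp7, Dusp10, Dusp16 and Dusp22, were chosen by gene symbol out of 25494 genes in the deposited expression table, and all 10 passed a minimum mean of 10 counts that 13027 genes passed. Their RNA abundance was measured in mouse macrophages, derived from bone marrow and immortalized, in which endogenous tristetraprolin (TTP, gene Zfp36) is missing. All groups carried the human MYC and Ras G12V oncogenes used for immortalization and a tetracycline-inducible transgene, which expressed GFP alone (the GFP group), GFP-TTP (TTP) or GFP-TTP-AA (TTP-AA), a TTP with the changes S52A and S178A. Doxycycline was present for 6 h and LPS for 1 h in all groups, both at 1 µg/ml. There were 3 libraries per group, numbered 1 to 3 in the labels.

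The design limits what a difference can mean. Each transgene sat in its own transduced line, so that an effect of the transgene and a difference between lines cannot be told apart. Libraries without LPS, without doxycycline or from cells without the oncogenes were not analysed here, so the induction of these phosphatases by LPS is not addressed, and neither is the part that the oncogenic Ras has in their levels.

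DUSPs that act on mitogen-activated protein kinases (MAPKs) switch off ERK, JNK and p38 by removing both activating phosphates. Many are themselves transcribed in response to MAPK activity and so form a negative feedback loop. In macrophages, LPS activates p38 and its downstream kinase MK2, which phosphorylates TTP at the serines that are mutated in TTP-AA and thereby inactivates it. TTP binds AU-rich elements in 3′UTRs, with the 7-base motif TATTTAT as its core site, and recruits enzymes that shorten the poly(A) tail. Dusp1 mRNA is a well known target of this kind, and its protein limits p38 activity.

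The annotated 3′UTRs of the members were searched on the sense strand for TATTTAT and for the pentamer ATTTA, which lies inside it (GENCODE mouse release 21, GRCm38, the transcript with the longest coding sequence). TATTTAT was present in 2 of 10 members and in 27.4% of the 11323 expressed genes that had a 3′UTR. ATTTA was present in 9 of 10 members, the exception being Dusp7, and in 66.1% of those genes. Dusp1 held 3 heptamers in a 3′UTR of 690 bases, whereas 20.1% of genes with a 3′UTR of like length (at most 25% longer or 20% shorter) held any. Dusp2 held 1 in 581 bases, beside 16.9% of genes of like length. When all annotated coding transcripts were searched, Dusp16 also held a heptamer, which made 3 of 10 members beside 31.7% of genes. A match is a match of letters and not a measured binding site. The heptamers of Dusp1 and Dusp2 are printed below because TTP is known for this motif, with 10 bases on each side and the motif in capitals. The Dusp1 sites lie on the minus strand of chromosome 17 at chr17:26506160-26506186, chr17:26505871-26505897 and chr17:26505675-26505701, which is 103, 392 and 588 bases after the stop codon. The Dusp2 site lies on the plus strand at chr2:127338305-127338331, 519 bases after the stop codon.
Dusp1 site 1: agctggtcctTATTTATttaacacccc
Dusp1 site 2: tttttaccttTATTTATttttgtgtag
Dusp1 site 3: tatgtttgttTATTTATgatctgaagt
Dusp2 site 1: cagcactttaTATTTATatagaacatt

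Dusp6, Dusp10 and Dusp22 are the members described further on that passed 1.5-fold or whose fitted values did not overlap between groups. Such non-overlap is no separation of measured libraries. No heptamer was found in the 3′UTRs searched for these 3 genes, and their ATTTA sites are shown in capitals for comparison. Dusp3, Dusp4, Dusp5 and Dusp7 held no heptamer either, nor did Dusp16 in the transcript with the longest coding sequence. The lack of a heptamer therefore does not set the 3 genes apart from most other members. Nor does the presence of ATTTA, which only Dusp7 lacked. Dusp6, Dusp10 and Dusp22 are not simply the members that differ most. Dusp1, at -0.57 against GFP, and Dusp2, at -0.53 for TTP-AA against TTP, hold heptamers and fell short of the line. Both lay further from 0 than Dusp10 (0.46) and Dusp22 (-0.44). Whether heptamers go with the differences was not tested. The Dusp6 site is at chr10:99267422-99267446, the Dusp10 sites are at chr1:184075517-184075545 and chr1:184075584-184075608, and the Dusp22 sites are at chr13:30709786-30709810 and chr13:30710042-30710066, all on the plus strand. The upper Dusp10 site holds 2 overlapping pentamers.
Dusp6 site 1: ttgagctggaATTTAttataagaat
Dusp10 site 1: aaaaacaaaaATTTATTTAaaaaatattt
Dusp10 site 2: tggtgtaagaATTTAttttcattat
Dusp22 site 1: gccatttgtgATTTAaaatgcctac
Dusp22 site 2: tcattgagtgATTTAaaatttgcag

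The nature of the deposited library values decides how they can be read. The table is named as normalized counts, but none of its values was 0, and the log2 values, centred by gene and library, gave only 4 singular values above 0, fewer than the 8 of 9 unconstrained libraries. Each value was the product of a library factor, a term for the replicate number and a term for the group, with a largest departure of 2.6e-14 on the log2 scale. The values are therefore fitted means and hold no scatter between replicates around the fit. Each difference below is accordingly a value with no test, all 3 libraries of a group move together by construction, and an SD shows the spread between replicate numbers only. The groups keep the same order at each replicate number by construction, which is no agreement between libraries. Likewise, the fitted ranges of a pair of groups fail to overlap only where their difference exceeds the range over replicate numbers. Such non-overlap is no separation of measured libraries. The library factor was removed by scaling with the median of ratios over the expressed genes, and the result is called a scaled fitted count. Column sums, which stand in for depth, ran from 21482954 in TTP replicate 1 to 102613526 in TTP-AA replicate 3.

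Of 8 macrophage markers 7 were found in the table, all above the minimum mean, with summed scaled fitted counts of 558849 to 778119 in GFP, 467735 to 643184 in TTP and 628282 to 872361 in TTP-AA libraries. Most of these sums was Lyz2, with means of 597422 in GFP, 486987 in TTP and 674451 in TTP-AA. The marker not found under its symbol was Adgre1. Of 8 markers of other cell types 5 were in the table and 0 reached the minimum mean, with summed values between 5.55 and 6.83 in every library. Among the macrophage markers Fcgr1 was lower in TTP than in GFP (290 against 672, a log2 difference of -1.21), and its part in the differences below was not tested. Zfp36 itself had 1744, 1423 and 890 scaled fitted counts in GFP, 1787, 1447 and 913 in TTP and 2828, 2298 and 1443 in TTP-AA. Its log2 difference was 0.03 between TTP and GFP and 0.69 between TTP-AA and GFP. The disrupted gene was thus listed at a high level in GFP cells too, and its level did not separate the libraries labelled TTP from those labelled GFP. How reads of the transgene were counted was not stated, so Zfp36 gives no check of these labels, and each direction below rests on them.

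Among the inducible phosphatases of the nucleus, Dusp1 was lower in both TTP groups than in GFP, and by nearly the same amount. Dusp1 dephosphorylates p38 and JNK and restrains cytokine production in LPS-treated macrophages. Its scaled fitted counts were 3561, 2355 and 1406 in GFP replicates 1 to 3, 2412, 1583 and 954 in TTP and 2403, 1583 and 949 in TTP-AA. Replicate 1 was high and replicate 3 low, alike in all groups by construction, and the ranges of the groups overlapped. The means were 2441 ± 1080 (SD, n = 3) in GFP, 1650 ± 731 in TTP and 1645 ± 729 in TTP-AA. The log2 difference was -0.57 for TTP against GFP, or 0.68-fold, and -0.57 for TTP-AA against GFP, or 0.67-fold, both just short of the 1.5-fold line at 0.58. The difference between TTP-AA and TTP was 0.00, and its sign turned with the scaling (from -0.01 to 0.03). Here and for the members below, leaving out a library unbalances the replicate numbers and shifts a difference only by part of the replicate-number term. The value for TTP against GFP then ran from -0.91 without GFP replicate 3 to -0.22 without TTP replicate 3. That for TTP-AA against GFP ran from -0.92 without GFP replicate 3 to -0.22 without TTP-AA replicate 3. That for TTP-AA against TTP ran from -0.35 without TTP replicate 3 to 0.34 without TTP-AA replicate 3. Of all expressed genes, 4.1% lay further from 0 than Dusp1 in TTP against GFP and 6.52% in TTP-AA against GFP. Dusp1 spans chr17:26505590-26562128 on the minus strand and shares exonic sequence with Ergic1 on the other strand. The sources used here do not say whether counting used strand, so reads of the overlap could belong to either gene.

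Dusp2, a nuclear phosphatase of blood cells that is induced on activation, had similar means in TTP and GFP and a lower mean in TTP-AA. GFP libraries had 876, 1340 and 761 scaled fitted counts, TTP libraries 920, 1396 and 800 and TTP-AA libraries 635, 968 and 551. Replicate 2 was the highest, alike in each group by construction, and the group ranges overlapped. The log2 difference was 0.07 for TTP against GFP, -0.47 for TTP-AA against GFP and -0.53 for TTP-AA against TTP, the last being a mean of 718 ± 220 against 1039 ± 316 (SD, n = 3). On leaving out a library the last value ran from -0.77 without TTP-AA replicate 2 to -0.30 without TTP replicate 2, and that for TTP-AA against GFP from -0.70 without TTP-AA replicate 2 to -0.23 without GFP replicate 2. Whether Dusp1 and Dusp2, the members that carry TATTTAT, differ in their pattern was not tested.

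Dusp4 and Dusp5 were nearly level. Dusp4, a nuclear phosphatase of ERK and JNK, had 5635, 5769 and 6548 scaled fitted counts in GFP, 4963, 5044 and 5774 in TTP and 5648, 5759 and 6560 in TTP-AA. TTP was the lowest group, with log2 differences of -0.19 against GFP and 0.19 for TTP-AA against TTP, and TTP-AA and GFP had nearly the same mean (5989 and 5984). Dusp5, a nuclear phosphatase selective for ERK, had 2001, 2640 and 2122 scaled fitted counts in GFP, 2159, 2827 and 2292 in TTP and 2300, 3021 and 2437 in TTP-AA. Its group term was highest in TTP-AA, by 0.20 over GFP and 0.09 over TTP on the log2 scale, and all groups overlapped. Dusp5 shares exonic sequence with AC137853.2 on the other strand.

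Dusp6 had the largest difference of the 10 members. It is a cytoplasmic phosphatase selective for ERK, is transcribed in response to ERK activity and serves as a common readout of that pathway. Its scaled fitted counts were 3251, 3289 and 1252 in GFP, 2656, 2668 and 1024 in TTP and 1880, 1894 and 724 in TTP-AA. The group terms stood in the order GFP, TTP, TTP-AA, which the fit repeats at each replicate number. Replicate 3 of GFP lay below replicates 1 and 2 of TTP-AA, so the ranges overlapped. The log2 difference was -0.79 for TTP-AA against GFP, or 0.58-fold, with means of 1499 ± 672 and 2597 ± 1165 (SD, n = 3), and 2.85% of expressed genes lay further from 0. It was -0.29 for TTP against GFP and -0.50 for TTP-AA against TTP. On leaving out a library the value for TTP-AA against GFP ran from -1.25 without GFP replicate 3 to -0.33 without TTP-AA replicate 3, with -0.57 without GFP replicate 1 and -0.56 without GFP replicate 2. The value for TTP-AA against TTP ran from -0.96 without TTP replicate 3 to -0.04 without TTP-AA replicate 3.

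Dusp7, the other cytoplasmic ERK phosphatase of the list, showed small differences. It had 1644, 1399 and 1236 scaled fitted counts in GFP, 1446, 1221 and 1089 in TTP and 1522, 1290 and 1143 in TTP-AA. Both TTP groups lay below GFP, with log2 differences of -0.19 for TTP and -0.11 for TTP-AA, and the ranges overlapped. Its 3′UTR of 1778 bases was the only one of the 10 in which no ATTTA was found, whereas genes with a 3′UTR of like length held a median of 3.

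Dusp10, which acts on JNK and p38, was the member with the lowest level, with 122, 112 and 91.9 scaled fitted counts in GFP, 111, 101 and 84 in TTP and 153, 140 and 115 in TTP-AA. The fitted values of all TTP-AA libraries lay above those of all TTP libraries, with a mean of 136 ± 19.1 against 98.8 ± 13.8 (SD, n = 3). The log2 difference was 0.46, or 1.38-fold. Dusp10 was the only member whose groups did not overlap in this comparison, beside 30.7% of expressed genes, and 15.7% of them lay further from 0. Against GFP the log2 difference was 0.33 for TTP-AA and -0.14 for TTP, with overlap in both.

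Dusp16, which binds JNK and p38 and shuttles between nucleus and cytoplasm, had 1643, 1567 and 2942 scaled fitted counts in GFP, 1623, 1537 and 2911 in TTP and 1999, 1900 and 3578 in TTP-AA. TTP and GFP were close, with a log2 difference of -0.02, and TTP-AA was higher by 0.28 than GFP and by 0.30 than TTP. These differences became -0.01 and 0.01 without TTP-AA replicate 3, and at most 0.57 without GFP replicate 3 and 0.60 without TTP replicate 3. Replicate 3 was the highest, alike in each group by construction, and all groups overlapped.

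The small members without a MAPK-docking domain are Dusp3 and Dusp22. Dusp22, which has been linked to JNK signalling, was the only member whose fitted values in GFP overlapped neither TTP group. Of all expressed genes, 19.6% did not overlap in TTP against GFP and 24.9% in TTP-AA against GFP. It had 1206, 1290 and 1396 scaled fitted counts in GFP, 888, 943 and 1030 in TTP and 911, 970 and 1055 in TTP-AA. The lowest fitted value in GFP was 1206 and the highest in the other groups was 1055. The log2 difference was -0.44 for TTP against GFP, or 0.74-fold, -0.41 for TTP-AA against GFP, or 0.75-fold, and 0.04 between TTP-AA and TTP. In TTP against GFP 6.58% of expressed genes lay further from 0, and in TTP-AA against GFP 13.5%. Dusp3, which acts on ERK and JNK, had 6740, 5587 and 6794 scaled fitted counts in GFP, 6044, 4974 and 6101 in TTP and 6485, 5354 and 6534 in TTP-AA. Its log2 differences were -0.16 for TTP and -0.06 for TTP-AA against GFP, with overlap, and it shares exonic sequence with Gm20659 on the other strand.

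**Figure D1:**
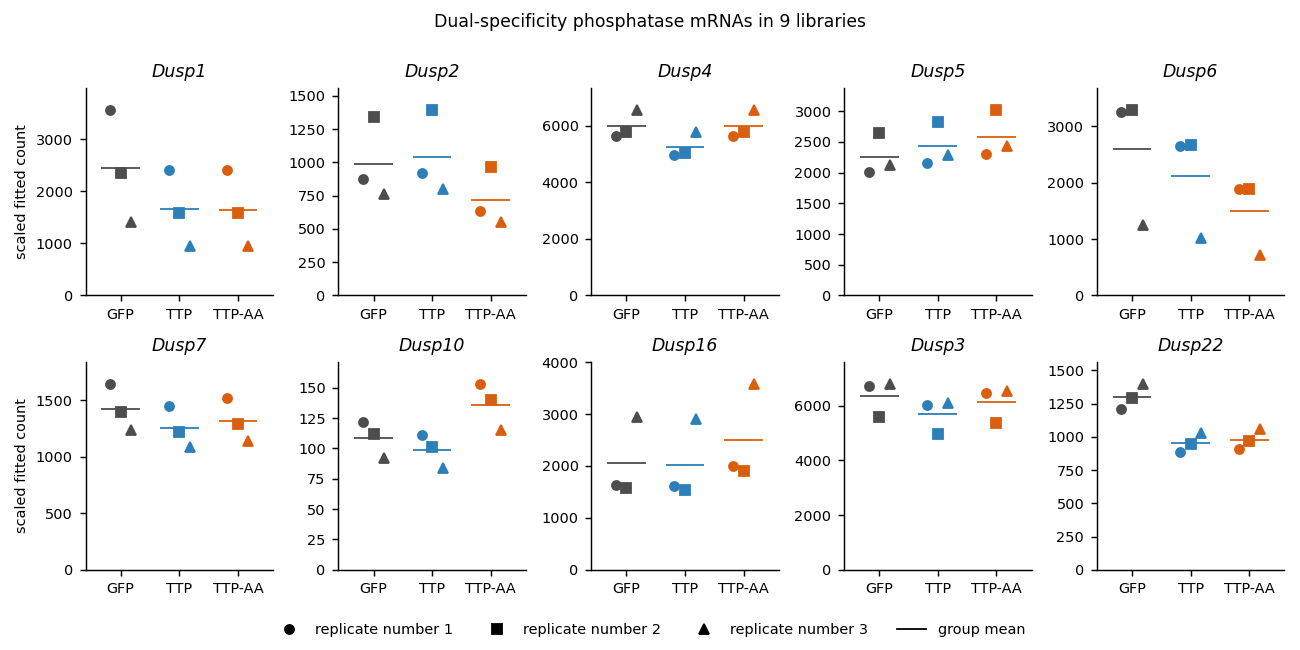
Scaled fitted counts (y axis, linear from 0, a separate scale in each panel) of the 10 phosphatase mRNAs in GFP, TTP and TTP-AA libraries (x axis); the symbol marks the replicate number and the line the mean of 3 libraries. Fitted values of Dusp22 in GFP (1206 to 1396) lie above those of both TTP groups, whereas Dusp1 and Dusp6 spread widely within each group. Of all expressed genes, 19.6% did not overlap in TTP against GFP and 24.9% in TTP-AA against GFP. The points hold no scatter between replicates around the fit.

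Counted over the 10 members, 0 passed 1.5-fold in TTP against GFP, beside 3.91% of expressed genes. In TTP-AA against GFP 1 passed (Dusp6, lower), beside 6.23% of genes. In TTP-AA against TTP 0 passed, beside 9.8%. These counts are near the background and are no result about the members. The fitted values of the compared groups did not overlap for 1 member in TTP against GFP (Dusp22), beside 19.6% of genes. They did not for 1 in TTP-AA against GFP (Dusp22 again), beside 24.9%, and for 1 in TTP-AA against TTP (Dusp10), beside 30.7%. These counts are no higher than the background and are no result about the members either. The 3 comparisons share groups and are not independent of each other. Of the 30 pairs of a member and a comparison, 27 overlapped.

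The median log2 difference of the members was -0.17 for TTP against GFP, -0.09 for TTP-AA against GFP and 0.08 for TTP-AA against TTP, beside 0.00 for all expressed genes in each. In TTP against GFP 8 of 10 members were below 0, and 8 were so under each of 3 other scalings. Those scalings put the median of all expressed genes between -0.03 and 0.00 in this comparison. They could therefore turn only members that close to 0. In TTP-AA against GFP 6 were below 0, or 7 when libraries were scaled by their sums, which turned Dusp4. In TTP-AA against TTP 7 were above 0, or 8 under scaling by upper quartile or by genes of high mean, which turned Dusp1. The share of all expressed genes on each side of 0 was not counted, so these counts of signs are no result about the members.

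**Figure D2:**
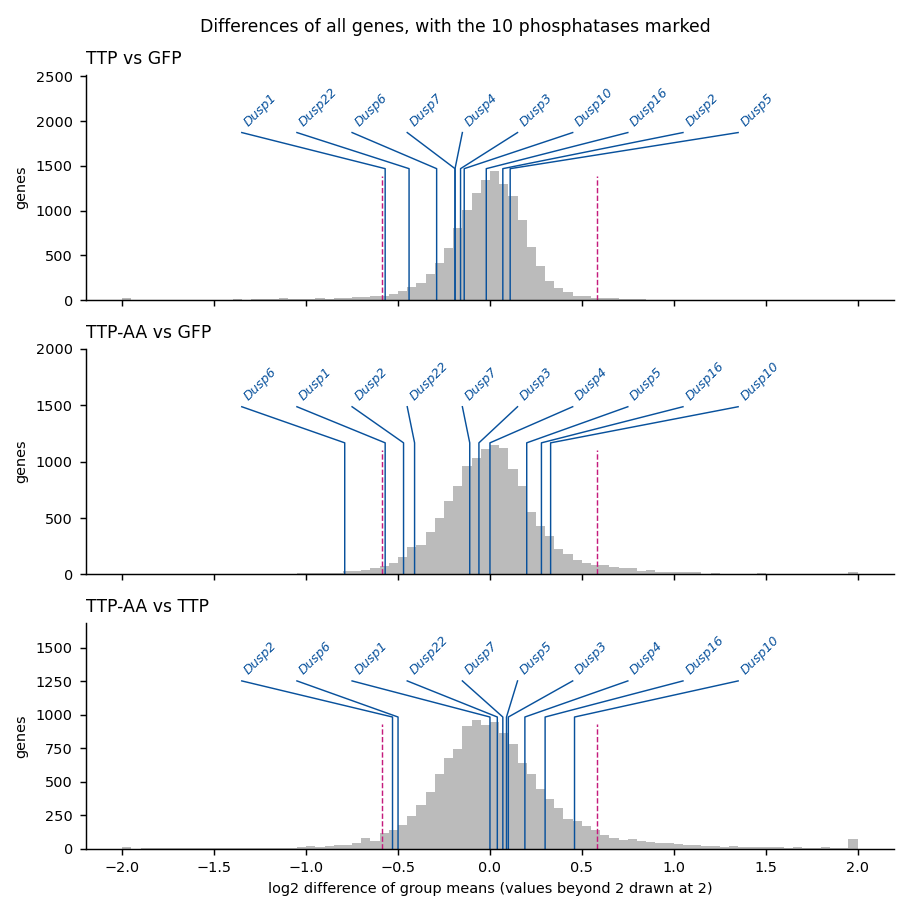
Histograms of the log2 difference of group means (x axis) over 13027 expressed genes (y axis, genes per bin) for the 3 comparisons, with blue lines at the 10 phosphatases and dashed lines at 1.5-fold. Only Dusp6 in TTP-AA against GFP, at -0.79, lies outside the dashed lines.

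In most members the values differed more between replicate numbers than between groups. The range of the replicate-number term, from the lowest to the highest of the 3 numbers, had a median of 0.41 on the log2 scale over the members and of 0.32 over all expressed genes, and in 8 of 10 members it exceeded each of the 3 group differences, as it did in 60.2% of genes. The exceptions were Dusp10 and Dusp22, which restates their non-overlap given above, since in fitted means both follow from the same comparison. Dusp6 ranged over 1.39 (2.62-fold) and Dusp1 over 1.34 (2.53-fold), more than 98.6% and 98.4% of genes, respectively. Both were lowest in replicate 3, with log2 differences of -1.38 and -1.34 from replicate 1. Zfp36, which like Dusp1 is an immediate early gene induced by LPS, differed by -0.97 between replicate 3 and replicate 1.

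Other members took other patterns. Dusp16 ranged over 0.91, more than 94.4% of genes, and was highest in replicate 3, by 0.84 over replicate 1. Dusp2 ranged over 0.81, more than 92.2% of genes, and was highest in replicate 2. Dusp7 and Dusp10 were lower in replicate 3 than in replicate 1, each with a log2 difference of -0.41. Dusp3, Dusp4, Dusp5 and Dusp22 ranged over 0.29, 0.22, 0.39 and 0.21. Among 13 immediate early genes 9 were lower in replicate 3 than in replicate 1, with a median of -0.23, beside -0.01 for all expressed genes. This drop was not particular to immediate early genes. Of 7 macrophage markers 6 were lower, with a median of -0.18. Of 5 Sprouty and Spred genes 3 were lower, with a median of -0.40. Of 10 downstream kinases 4 were lower, with a median of 0.08. The share of all expressed genes that were lower was not counted. The methods give library date as a term of the model, and whether date, LPS exposure or another condition differed between the replicate numbers in these cells was not tested.

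**Figure D3:**
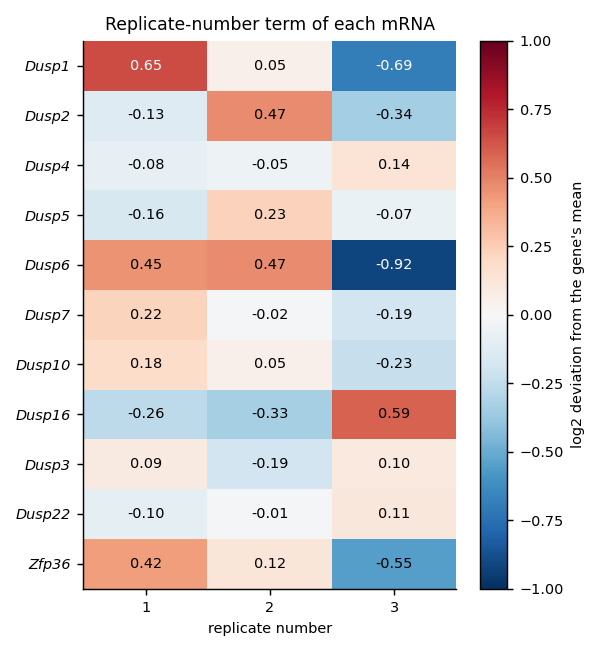
Replicate-number term of each phosphatase mRNA and of Zfp36 (rows) for replicate numbers 1, 2 and 3 (columns), as log2 deviation from the gene's mean over the 3 numbers. Dusp1 (0.65, 0.05 and -0.69) and Dusp6 (0.45, 0.47 and -0.92) are lowest at number 3, where Dusp16 (0.59) is highest.

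**Figure D4:**
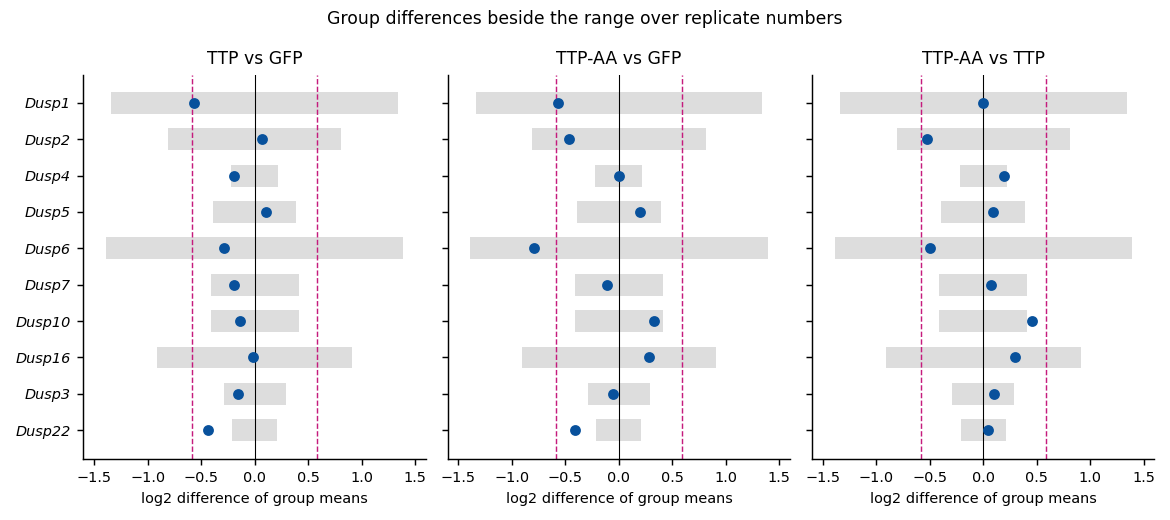
Log2 difference of group means (x axis, points) for the 10 phosphatases in the 3 comparisons, on grey bars that extend to either side of 0 by the range over replicate numbers; dashed lines mark 1.5-fold. Points leave the grey bar for Dusp22 in both comparisons with GFP (-0.44 and -0.41 on a range of 0.21) and for Dusp10 in TTP-AA against TTP (0.46 on a range of 0.41). By construction these are the pairs whose fitted values do not overlap.

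For Dusp6 and Dusp1 the fitted values also sat apart from the measured mean. The authors' mean normalized count over the 9 libraries, which is not fitted, was 2405 for Dusp6, whereas the fitted values averaged 2071. The ratio of 1.16 was higher than in 98.9% of expressed genes. For Dusp1 it was 2046 against 1912, a ratio of 1.07 and higher than in 96.5% of genes. The other 8 members had ratios of 1.00 to 1.01, and the median over all genes was 0.996. The values per library that would show which libraries depart from the fit were not analysed here.

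Levels were compared between members per kilobase of transcript. In scaled fitted counts per kilobase over all libraries, Dusp4 was the most abundant at 2097, followed by Dusp3 at 1408, Dusp5 at 979, Dusp1 at 961, Dusp6 at 741 and Dusp2 at 567. Below these were Dusp16 at 429, Dusp7 at 415, Dusp22 at 357 and Dusp10 at 41. Dusp4 exceeded 87.1% of expressed genes and Dusp10 exceeded 18.6%. Neighbours in this order overlapped over the 9 libraries except Dusp4 with Dusp3 and Dusp22 with Dusp10, and the order was the same with the longest transcript of each gene. Over all libraries the leading members thus include nuclear phosphatases (Dusp4 and Dusp5) and the small phosphatase Dusp3. In GFP alone Dusp1 (1227) and Dusp6 (929) lay above Dusp5 (912), whereas in TTP and TTP-AA Dusp5 lay above both.

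The rest of the family and of the pathway was described from fixed gene lists. Of 20 other DUSP family genes, 17 passed the minimum mean, and 1, 2 and 0 of them passed 1.5-fold in TTP against GFP, TTP-AA against GFP and TTP-AA against TTP, with medians of 0.04, -0.01 and 0.07. Here and for the lists below, the shares of all expressed genes past this line are 3.91%, 6.23% and 9.8% in the same order. Dusp9, a cytoplasmic ERK phosphatase related to Dusp6 and Dusp7, was higher in both TTP groups. It had 265, 297 and 277 scaled fitted counts in GFP, 450, 500 and 471 in TTP and 490, 546 and 511 in TTP-AA, with no overlap with GFP and log2 differences of 0.76 and 0.88. The other was Dusp13, at 0.61 in TTP-AA against GFP, which was named after its value was seen because its mean of 41.1 is under the 50 set for named genes.

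Of 9 expressed MAPK genes, 2, 2 and 1 passed 1.5-fold in the same order of comparisons, beside 3.91%, 6.23% and 9.8% of expressed genes, with medians of -0.02, -0.02 and -0.04. Mapk12, a p38 isoform, was higher by 0.66 in TTP and by 0.61 in TTP-AA than in GFP, at means of 44.6 in GFP, 70.2 in TTP and 68.2 in TTP-AA. Mapk13, another p38 isoform named after its values were seen, had a mean of 27 and differences of -0.74, 0.65 and 1.39. Of 15 upstream kinases 0, 1 and 0 passed, the 1 being Map3k1, which feeds JNK and ERK signalling, with -0.63 in TTP-AA against GFP. Of 10 downstream kinases 0, 0 and 1 passed, the 1 being Mknk2, which phosphorylates the translation factor eIF4E, with 0.80 in TTP-AA against TTP.

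Of 5 expressed Sprouty and Spred genes, which restrain Ras-ERK signalling, 0, 1 and 1 passed 1.5-fold, in both cases Spry2. Its scaled fitted counts were 465, 414 and 353 in GFP, 396, 350 and 301 in TTP and 251, 222 and 190 in TTP-AA, and its log2 differences were -0.89 for TTP-AA against GFP and -0.66 against TTP. The medians of these 5 genes were -0.03, -0.13 and -0.13. Of 13 immediate early genes 1, 3 and 2 passed, beside 3.91%, 6.23% and 9.8% of expressed genes. Ier3, a stress-inducible gene with AU-rich elements, had a log2 difference of -0.94 for TTP-AA against GFP, and Ier2 had -0.74. Fosl1, an AP-1 subunit induced by ERK, was 0.99 higher in TTP-AA than in GFP and 0.63 higher in TTP than in GFP. The medians of this list were -0.07, -0.08 and -0.08.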

How the data were processed

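Ribosomal RNA-depleted total RNA was sequenced as 50 bp single-end reads. Per the labels and the methods, the authors aligned reads with TopHat to GRCm38 (TopHat2 2.0.12 in the submitters' processing notes), allowed multiply placed reads, counted reads per Ensembl gene with HTSeq and fitted DESeq2 1.6.3 with library date and condition. The deposited signal values are the fitted means described above. Of the authors' comparison tables, which hold a mean, a fold change, its standard error and p-values per gene, only the mean normalized count was used here. Groups and replicate numbers came from the titles. Same-numbered libraries deviate together by construction.

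Libraries were scaled by the median of ratios over genes whose mean reached 10 and compared as log2 values with no pseudocount. A gene was counted when past 1.5-fold. No test was run on the fitted means, which leave no residual for the limma fit that was planned. The fold change in the text comes from these values, and whether the model shrank it is not given in the sources used here. The steps were tested on simulated data. Python 3.11.15, numpy 2.4.6 and pandas 2.3.3 were used. The members and gene lists were chosen with earlier results of these data known. Named genes were the members, Zfp36 and, per list, up to 3 genes past 1.5-fold with a mean of at least 50. Alternatives covered scaling, pseudocounts, filters, fold, transcripts and leaving out libraries.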

Additional observations from a re-analysis of the deposited data

How the results depend on the processing

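The 30 member differences moved by less than the spread between replicate numbers under 3 other scalings, pseudocounts of 1 and 10 and the log2 of the group mean. That spread holds the replicate-number term alone, and the runs that left out a library all stayed within it too. Staying within it therefore says nothing of stability. The replicate block returns the same differences by construction, and leaving out a library shifts a group mean only by part of the replicate-number term, so neither says anything of stability. The count of members past 1.5-fold was 0, 1 and 0 for TTP against GFP, TTP-AA against GFP and TTP-AA against TTP, and it was 0, 1 and 0 with the replicate block too, by construction of the fitted means. It rose to 1 for TTP against GFP when scaling used genes whose mean reached 1000, the added gene being Dusp1 at -0.59. Leaving out each library in turn gave counts of 0 to 2, 0 to 3 and 0 to 3. The sign of 11 of the 30 differences turned on leaving out some library, through the unbalanced replicate numbers. Among them was Dusp6 in TTP against GFP (-0.29), at 0.16 without TTP replicate 3. Dusp6 in TTP-AA against GFP no longer passed 1.5-fold without GFP replicate 1, GFP replicate 2 or TTP-AA replicate 3. At a lower line of 0.32 on the log2 scale 2, 5 and 3 of the 10 members passed, beside 1644, 2681 and 3660 of the 13027 expressed genes. Whether these member counts differ from the background was not tested. At 2-fold 0 members passed in TTP-AA against GFP, and 178, 191 and 425 of the 13027 expressed genes passed, in place of 509, 812 and 1277. Fitted means give no error, so depth could not be set against any value.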
